A study of Homo sapiens with 4 samples.

Results

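The locus of miR-132 and miR-212 makes 2 miRNA hairpins from 1 stretch of chromosome 17, and its 3 counted products were hsa-miR-132-5p, hsa-miR-212-3p and hsa-miR-212-5p. They are 3 of the 2366 human miRNAs in the count tables, and all 3 passed the filter on low counts, as 464 miRNAs did. The 3 were chosen by their measured change after ERH knockdown in these same libraries, that is, by the parting of miR-132 from miR-212, so their changes are given below as a description. The other arm of the first hairpin, miR-132-3p, was not analysed here, so miR-132 is represented by its 5p arm alone.

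Small-RNA libraries came from K562, a leukaemia line of erythroid character, that stably expresses dCas9-KRAB, a nuclease-dead Cas9 joined to a repressor domain. Each of 2 guide RNAs against ERH was carried by its own polyclonal, doxycycline-inducible line. The ERH knockdown libraries were taken on day 5 with 0.05 µg/ml doxycycline and the control libraries from the same lines on day 5 without it, 1 library per guide RNA and condition. Both groups therefore carry dCas9-KRAB and an ERH guide RNA, and doxycycline separates them together with the knockdown. ERH mRNA was not measured in these small-RNA libraries. The libraries held 1430434 to 2476700 miRNA reads. Erythroid miR-451a had 36108 to 60800 reads in each, whereas liver miR-122-5p had at most 5 and neuronal miR-124-3p at most 1.

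As background, a miRNA is cut out of a long primary transcript by the Microprocessor (Drosha with DGCR8), which releases a hairpin, and then by Dicer, which leaves a 5p and a 3p arm. ERH is a small protein that binds DGCR8 and has been linked to the processing of hairpins that lie beside others. The miR-132 and miR-212 hairpins are known to be made from a shared primary transcript that the transcription factor CREB induces, and they are best studied in neurons, where they are known for a part in dendrite growth.

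The mature sequences are shown because the hairpins share a seed on one arm and differ elsewhere. They are from RefSeq (GRCh38.p14), 5′ to 3′, with the seed, bases 2 to 8 that pair with target mRNAs, in capitals.
hsa-miR-132-5p: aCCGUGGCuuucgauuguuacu
hsa-miR-212-5p: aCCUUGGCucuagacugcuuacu
hsa-miR-212-3p: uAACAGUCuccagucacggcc
hsa-miR-132-3p: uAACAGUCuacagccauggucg

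The 3p arms share their seed, and in the RefSeq table no other human miRNA has it. Counted from 1 at the 5′ end without gaps, miR-212-3p differs from miR-132-3p at 4 of 21 bases (A10C, C14U, U17C and U20C, miR-132-3p base first). The sources used here do not say how reads close to both were assigned. The 5p arms differ within the seed by 1 substitution, G4U (miR-132-5p base first), and are identical at 14 of 22 bases. Neither 5p seed occurs in another miRNA of that table. The miR-132-5p reads thus come from a sequence that matches miR-212-3p at only 5 of 21 ungapped bases.

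Both hairpins lie on the minus strand (GRCh38), MIR132 at chr17:2049908-2050008 and MIR212 at chr17:2050271-2050380, with 262 bases between them. miR-212 is upstream in the direction of transcription. GENCODE 29 annotates no host gene over either hairpin, and the nearest protein-coding gene, HIC1, starts 3774 bases away on the other strand. The hairpins are printed with the mature arms in capitals, since their shape bears on the Microprocessor.
MIR132: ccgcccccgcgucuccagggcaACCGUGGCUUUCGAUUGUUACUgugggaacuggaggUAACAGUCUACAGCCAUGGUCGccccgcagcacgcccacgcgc
MIR212: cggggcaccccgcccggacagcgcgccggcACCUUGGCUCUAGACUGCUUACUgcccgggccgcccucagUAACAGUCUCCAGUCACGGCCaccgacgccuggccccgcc

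By predicted folding the hairpins were alike in stability. The minimum free energy per 100 bases was -45.8 kcal/mol for MIR132 and -45.4 kcal/mol for MIR212, against a median of -45.2 over 1562 RefSeq hairpins. They differed in detail. MIR132 was 65.3% G or C and MIR212 73.6%, a content that 95.1% of hairpins fell below. The predicted fold left 3 bases of miR-132-5p and 4 of miR-132-3p unpaired, against 5 in each arm of miR-212. The loop between the arms was 14 bases in MIR132 and 17 in MIR212. The letters UGU, searched on the transcribed strand in the loop and 3 bases on either side, were in MIR132 and not in MIR212, and they were in 44.7% of the 739 hairpins with both arms annotated.

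In control cells miR-132-5p and miR-212-3p had near-equal reads, at a low level. miR-132-5p had 47 reads with guide RNA 1 and 51 reads in the guide RNA 2 line, or 32.9 and 20.6 CPM (reads per 1000000 miRNA reads). miR-212-3p had 52 and 47 reads, or 36.4 and 18.98 CPM. These 2 miRNAs stood at ranks 251 and 246 of the 464 tested. miR-212-5p, the lesser arm of its hairpin, had 7 and 14 reads, or 4.89 and 5.65 CPM, at rank 395. For scale, a count of 0 would allow up to 3 reads, or 1.21 to 2.10 CPM depending on the library.

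The control libraries themselves differed at this locus. The CPM with guide RNA 1 over that with guide RNA 2 was 1.60 (95% interval 1.05 to 2.42) for miR-132-5p and 1.92 (1.27 to 2.90) for miR-212-3p, both past counting error. The median over tested miRNAs was 1.06, and 6.91% and 3.46% of them had ratios at least as high. For miR-212-5p the ratio was 0.866, with an interval of 0.296 to 2.29 that spans 1. After knockdown the corresponding ratios were 1.18 (0.846 to 1.65) and 1.12 (0.620 to 2.02) for miR-132-5p and miR-212-3p. For miR-212-5p it was 0.215 (0.0045 to 1.92), from 1 read against 5, the lowest of the 464 tested miRNAs. These exact intervals cover counting error only, and they do not cover differences between cultures. The labels mention no molecular identifiers, so copies of the same molecule may be counted as separate reads. The intervals may then be too narrow even for counting error.

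After ERH knockdown both miR-212 arms were lower with each guide RNA, while miR-132-5p overlapped with controls. miR-212-3p had 26 and 25 reads (guide RNA 1 and 2), or 11.7 and 10.4 CPM, against 36.4 and 18.98 in controls. Both knockdown libraries were below both control libraries. miR-212-5p had 1 and 5 reads, or 0.449 and 2.09 CPM, against 4.89 and 5.65, again without overlap, although its lowest value is a single read. miR-132-5p had 79 and 72 reads, or 35.5 and 30.1 CPM, against 32.9 and 20.6, and its groups overlapped. In bulk RNA from a polyclonal line, fewer cells making a miRNA and less of it per cell cannot be told apart. Among all tested miRNAs, 34.9% had both knockdown libraries below both controls on the TMM-scaled CPM (CPM corrected for composition between libraries by the trimmed mean of M values). On that scale miR-212-3p had 9.88 and 9.13 after knockdown against 41.2 and 22.7 in controls. miR-212-5p had 0.380 and 1.83 against 5.55 and 6.75, so neither arm overlapped there. The share on the unscaled CPM given above was not computed.

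**Figure D1:**
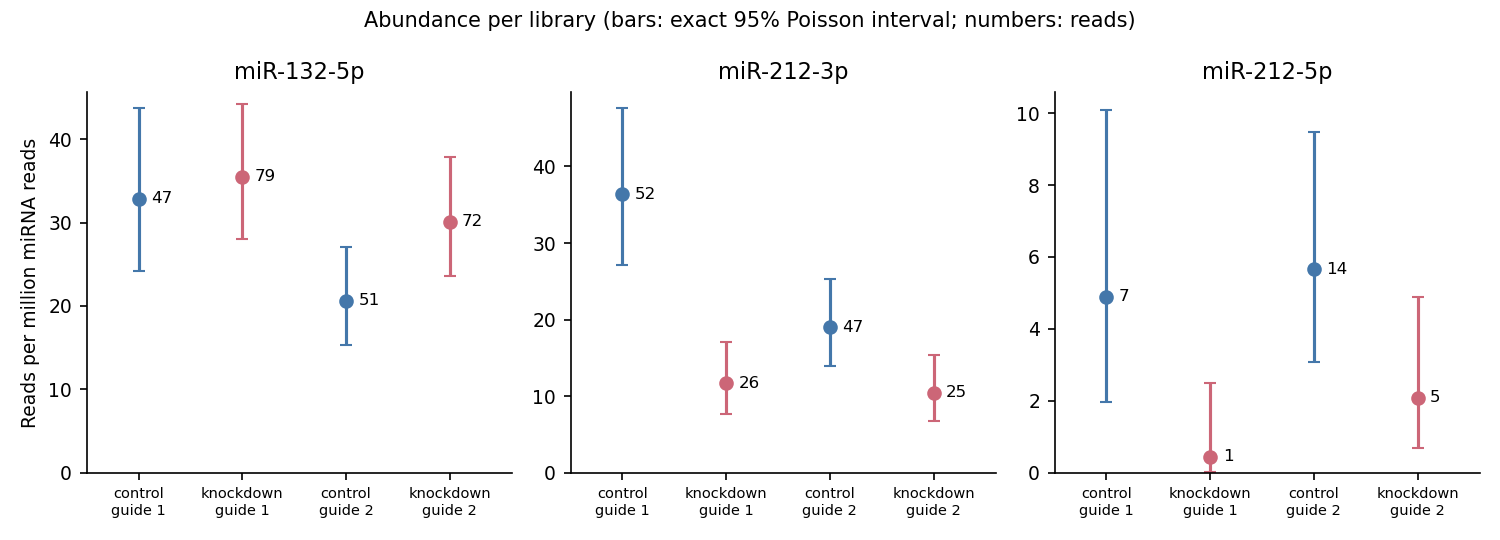
CPM (vertical axis, separate scale per panel) of each miRNA in the 4 libraries, with exact 95% Poisson intervals and the read count beside each point. miR-212-3p has 52 control and 26 knockdown reads with guide RNA 1 and 47 and 25 with guide RNA 2, in libraries of differing depth, while miR-132-5p has 47 and 79, and 51 and 72.

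In the fit across all tested miRNAs, the log2 fold change of knockdown over control was -1.65 ± 0.30 for miR-212-3p, -2.44 ± 0.57 for miR-212-5p and -0.07 ± 0.21 for miR-132-5p (SE, 2 libraries per group). Both miR-212 arms were called lower in edgeR (Benjamini-Hochberg adjusted p under 0.05), which was so for 25.2% of tested miRNAs with the TMM scaling used here, and 50.9% were called in either direction. The members were chosen on this contrast, so nothing is read from that count. miR-212-5p and miR-212-3p stood at ranks 3 and 6 among the lowest fold changes and miR-132-5p at rank 192. Without knockdown replicate 1 neither arm passed (-1.73, adjusted p = 0.063, and -1.77, adjusted p = 0.073, in edgeR), in a fit that called 117 miRNAs instead of 236. Without control replicate 1 miR-212-5p did not pass (-2.55, adjusted p = 0.064, edgeR), and without control replicate 2 it did not reach the filter. In each of these fits 1 group is a single library, assumed to vary like the pair of the other group.

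**Figure D2:**
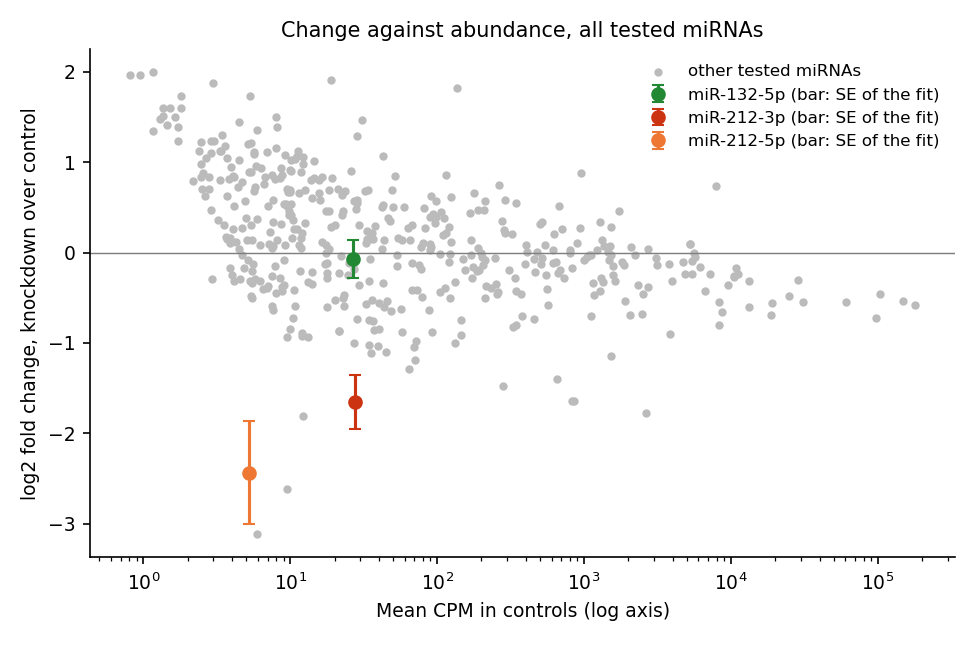
Log2 fold change of knockdown over control from the edgeR fit (vertical axis) against mean CPM in controls (horizontal log axis) for the tested miRNAs, with bars of 1 SE on the 3 named ones. miR-212-3p (-1.65) and miR-132-5p (-0.07) have almost the same abundance in controls and lie apart, and miR-212-5p (-2.44) sits lower in abundance.

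Within each guide RNA, miR-212-3p was below control by more than counting error. With TMM scaling its level after knockdown was 0.240 of control (95% interval 0.144 to 0.391) with guide RNA 1 and 0.402 (0.237 to 0.667) with guide RNA 2. For miR-212-5p the values were 0.068 (0.0015 to 0.533), from 1 read against 7, and 0.270 (0.076 to 0.794). For miR-132-5p they were 0.805 (0.554 to 1.18) and 1.07 (0.736 to 1.56), on either side of 1. The intervals of the 2 guide RNAs overlap for each miRNA, and the difference between guide RNAs was not tested.

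The scaling between libraries sets the sign for miR-132-5p and not for miR-212. Over all tested miRNAs the median change (log2) was 0.06 with TMM, 0.50 with library size alone and 0.75 with the added spike-in RNAs. miR-132-5p stood at -0.07, 0.37 and 0.58 under these scalings and was called under none of them. miR-212-3p stood at -1.65, -1.21 and -1.003, and miR-212-5p at -2.44, -2.00 and -1.78, called under all 3. The share of tested miRNAs called lower was 8.84% with library size and 1.72% with spike-ins. Relative to the median of all tested miRNAs, miR-132-5p was at -0.14, -0.13 and -0.16 and miR-212-3p at -1.71, -1.72 and -1.75. Per 10000 spike-in reads, miR-132-5p had 10.2 and 8.78 reads in controls and 13.3 and 15.04 after knockdown. On that measure its groups did not overlap and the knockdown was higher, by 1.31-fold (0.902 to 1.92) with guide RNA 1 and 1.71-fold (1.18 to 2.503) with guide RNA 2. So it was for most miRNAs: 68.8% of those tested had both knockdown libraries above both controls per spike-in read. miR-212-3p had 11.3 and 8.09 reads per 10000 spike-in reads in controls against 4.39 and 5.22 after knockdown. With guide RNA 2 the interval of its change, 0.381 to 1.07 of control, reached 1. For miR-212-5p with guide RNA 2 the interval reached 1 with library size (0.104 to 1.09) and with spike-ins (0.122 to 1.27).

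**Figure D3:**
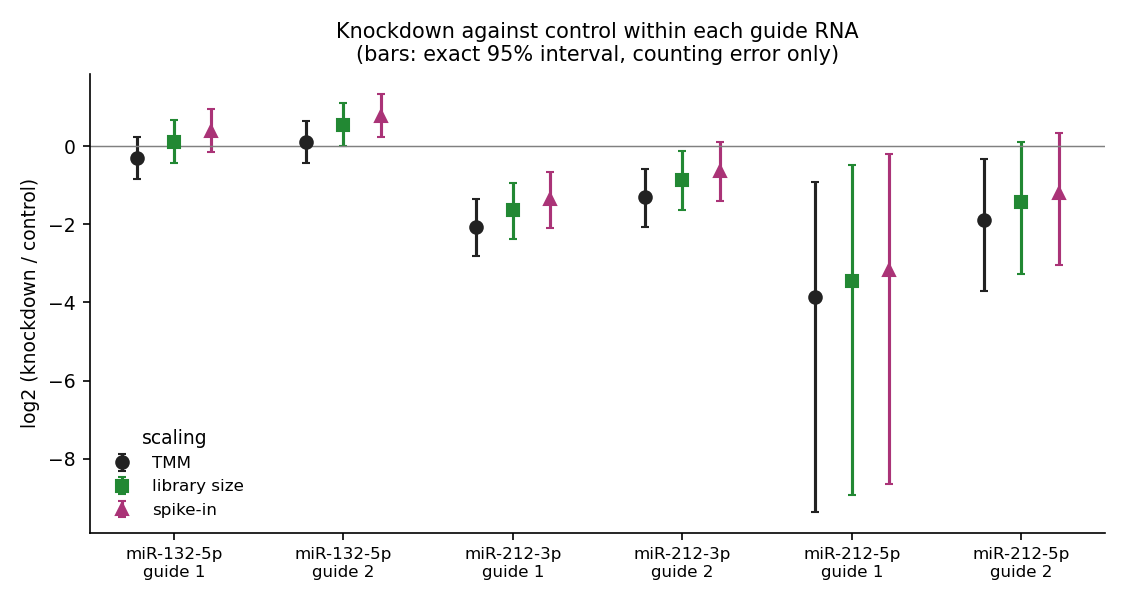
Log2 of knockdown over control (vertical axis) for each miRNA and guide RNA under 3 scalings, with exact 95% intervals for counting error. All 6 miR-212-3p points lie below 0 while the miR-132-5p points move from -0.31 (guide RNA 1, TMM) to 0.78 (guide RNA 2, spike-in).

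The ratio of the hairpins within a library needs no scaling. Reads of miR-132-5p per read of miR-212-3p numbered 0.904 (0.596 to 1.37) and 1.09 (0.716 to 1.65) in controls with guide RNA 1 and 2. After knockdown they numbered 3.04 (1.93 to 4.93) and 2.88 (1.80 to 4.74). Expressed as a share, miR-212-3p made up 52.5% and 48.0% of the reads of this pair in controls and 24.8% and 25.8% after knockdown. The libraries of each condition lie close together and the conditions lie apart, 2.96 ± 0.11 against 0.99 ± 0.13 (SD, n = 2). The control libraries, which differed in the level of both miRNAs, had ratios that did not differ beyond counting error. The intervals of these ratios are wide, so a difference between the control libraries is not excluded.

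Knockdown multiplied that ratio by 3.36 (95% interval 1.78 to 6.37) with guide RNA 1 and by 2.65 (1.39 to 5.09) with guide RNA 2. The mean change was 1.58 ± 0.24 on the log2 scale (SD over the guide RNAs, n = 2). With 2 libraries per group an exact permutation test cannot reach a p of 0.05, and the pair was picked for this ratio, so no p is given. At 97 to 105 reads per library for the pair, both intervals lie above 1 and each spans more than 3-fold, so the size of the change is known only loosely.

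The parting was also present when the same arm of each hairpin was compared. Reads of miR-132-5p per read of miR-212-5p were 6.71 (3.02 to 17.6) and 3.64 (1.99 to 7.13) in controls and 79.0 (13.8 to 3159) and 14.4 (5.89 to 45.7) after knockdown. The ratio was 11.8-fold higher (1.42 to 537) after knockdown with guide RNA 1 and 3.95-fold higher (1.23 to 14.8) with guide RNA 2. The first of these rests on 1 read of miR-212-5p. With both miR-212 arms summed, miR-132-5p per miR-212 read was 0.797 and 0.836 in controls and 2.93 and 2.40 after knockdown.

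Whether the arms of miR-212 itself changed in proportion could not be resolved. miR-212-3p per miR-212-5p was 7.43 and 3.36 in controls and 26.0 and 5.00 after knockdown. The change was 3.5-fold (0.409 to 164) with guide RNA 1 and 1.49-fold (0.438 to 5.88) with guide RNA 2, and both intervals span 1. The mean change over the guide RNAs was 1.19 ± 0.87 on the log2 scale (SD, n = 2), and 0.57 within guide RNA 2. Without knockdown replicate 1, the other knockdown library was 0.0018 from the mean of both controls, a comparison that is not paired by guide RNA.

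**Figure D4:**
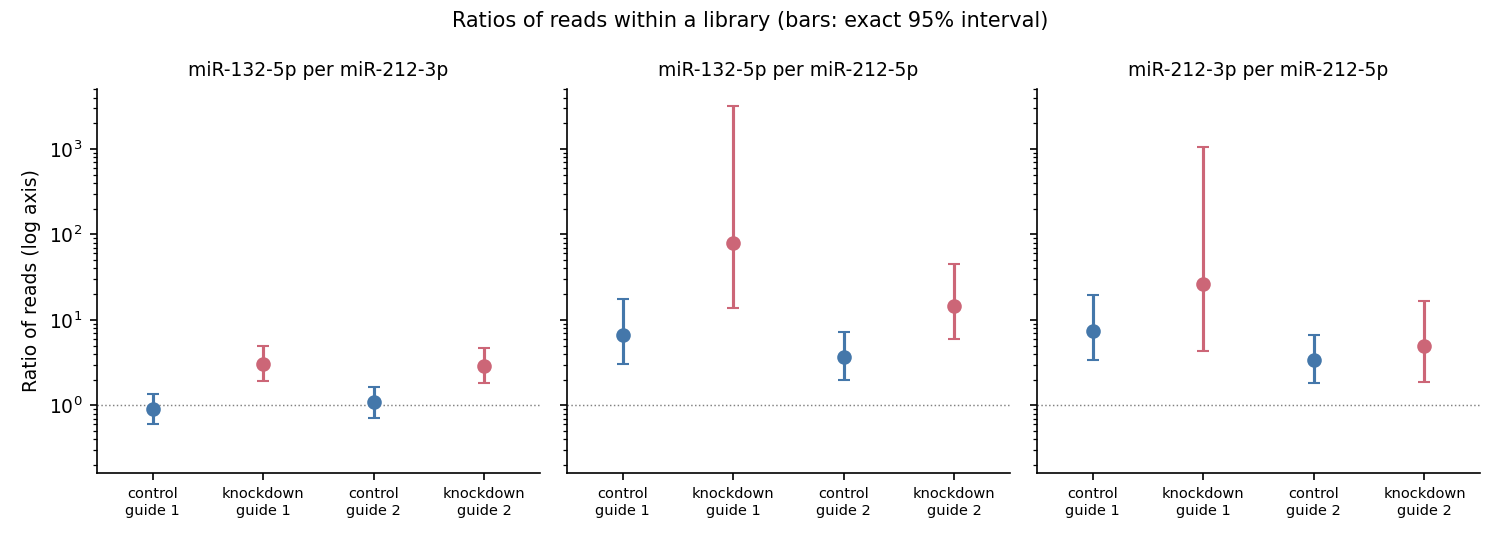
Ratios of reads within each library (vertical log axis) with exact 95% intervals, for the pair of hairpins by their main counted arms, by their 5p arms, and for the arms of miR-212. Only in the first panel are the intervals narrow: control ratios of 0.904 and 1.09 lie at the dotted line of equal reads and knockdown ratios of 3.04 and 2.88 above it.

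Set beside other neighbours, the change in this ratio was large. Hairpins in 1 cluster (neighbours within 10 kb on 1 strand) form 336 pairs, each hairpin standing for its most abundant tested miRNA, and pairs of a cluster share hairpins. Of these pairs, 261 are on chromosome 19, so the figures over all pairs largely describe that chromosome. The median absolute mean change of the log2 ratio was 0.32. In 7.14% of pairs the mean change over the guide RNAs was at least 1 in absolute value, with the same direction for both. A single guide RNA could give less, such as 0.34 with guide RNA 2 for miR-520d-5p per miR-524-5p. The miR-132-5p/miR-212-3p pair ranked 2 of 336 by absolute mean change. Those nearest to it were miR-518e-3p per miR-520d-5p (-1.66) and miR-516a-5p per miR-520d-5p (-1.57), both of the placental chromosome 19 cluster, and miR-199b-5p per miR-3154 (-1.53). In these pairs the lowest count in a library was 6, 6 and 4 reads, against 25 for miR-132-5p/miR-212-3p. The pair ranked 1 of 94 with neighbours within 3 kb and 7 of 386 within 50 kb. Among the 75 pairs on other chromosomes, a subset taken after the data were seen, the median absolute change was 0.35. In 9 of these pairs the mean change was at least 1 in absolute value, with the same direction for both guide RNAs. The miR-132-5p/miR-212-3p pair ranked 1 among the 75. The rule that named the pair used this same change, so its rank is a description.

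**Figure D5:**
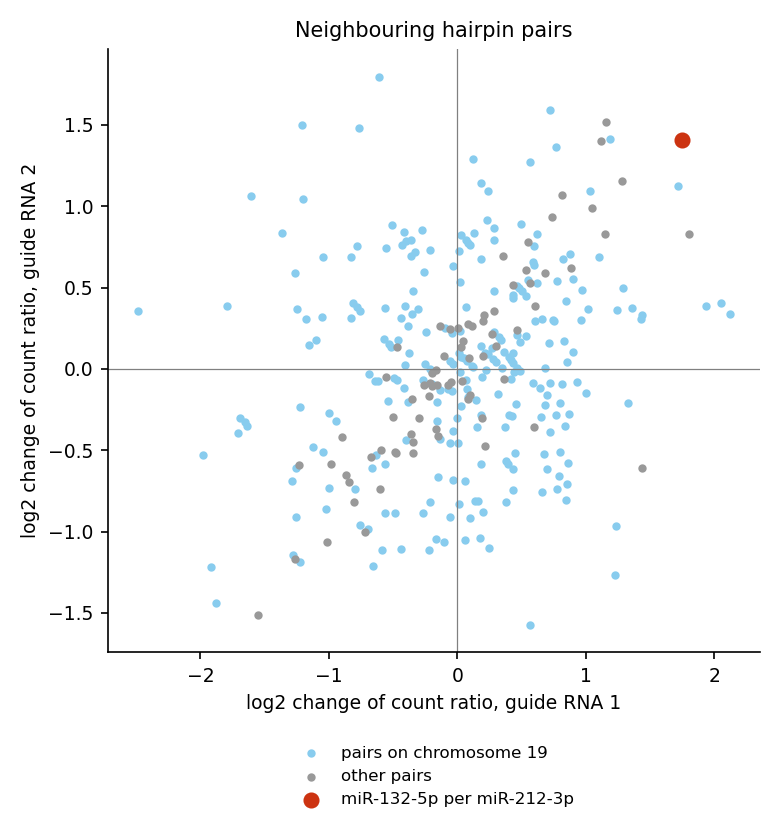
Change of the log2 count ratio after knockdown with guide RNA 1 (horizontal) and guide RNA 2 (vertical) for 336 pairs of neighbouring hairpins, where the sign follows the alphabetical order of the names. The miR-132-5p/miR-212-3p point lies at 1.75 and 1.41, at the edge of the cloud for both guide RNAs.

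The miRNAs whose pattern over the 4 libraries was most like each product were different for the 2 hairpins. Likeness was the Euclidean distance between centred log2 CPM values over the 4 libraries, among 322 other miRNAs with a mean of at least 10 CPM in controls. Closest to miR-132-5p were miR-181c-5p (distance 0.24), miR-3667-5p (0.24) and miR-105-5p (0.26), with log2 fold changes of -0.15 ± 0.15, 0.16 ± 0.31 and -0.01 ± 0.11 (SE), none called. Its own neighbour miR-212-3p was at a distance of 1.504, beyond the median of 0.62 for those 322. Seen from miR-212-3p, the same distance was below the median of 1.67 for its 322 candidates. The pair was picked for its parting in these libraries, so this distance is a description. Closest to miR-212-3p were miR-21-3p (0.36), miR-34a-5p (0.37) and miR-223-5p (0.37), at -1.64 ± 0.10, -1.81 ± 0.34 and -1.64 ± 0.10. Closest to miR-212-5p were miR-1260b (0.63), miR-25-5p (0.82) and again miR-223-5p (0.87), while miR-212-3p was at 1.17. With 4 libraries in 2 conditions, this measure mostly sorts miRNAs by the size of their change.

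The wider surroundings of the locus gave little to compare. Of 3 other annotated hairpin genes within 1 Mb, only MIR22, 335921 bases away, gave a tested miRNA. miR-22-3p, abundant in erythroid cells, had 7658 and 10893 reads in controls and 12662 and 13220 after knockdown, a log2 fold change of -0.23 ± 0.06 (SE) that turned to 0.20 with library size and 0.47 with spike-ins. miR-6776-3p, miR-6776-5p and miR-1253 had at most 2 reads in any library.

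miRNAs listed here as neuron-enriched, the company in which miR-132 and miR-212 are usually studied, had 3 calls among 9 tested members. The list was set by name, and enrichment of its members in neurons over other brain cells was not checked. Of 18 listed names, 15 had rows and 9 were tested, of which 2 were called higher and 1 lower (edgeR, adjusted p under 0.05), that is 3 of 9 against 50.9% of all tested miRNAs, and the median log2 fold change was -0.03 against 0.06. The 3 most abundant were not called: miR-128-3p at -0.03 ± 0.06, miR-7-5p at -0.03 ± 0.09 and miR-219a-5p at -0.13 ± 0.07 (SE). All 3 are positive with library size alone, and called, and positive with spike-ins, not called. With library size miR-9-5p (0.25) and miR-153-3p (0.91) were called higher too, the latter also with spike-ins. Of all 464 tested miRNAs, 314 were called with library size, 273 of them higher, and 194 with spike-ins, 186 of them higher. Those called higher with TMM were miR-129-5p (8 and 14 reads in controls, 36 and 40 after knockdown) and miR-149-5p (1 and 3 reads, then 15 and 11). Both remained higher under each scaling. The lower one was miR-9-3p, at -0.39 ± 0.12, which was positive and not called with library size (0.05) and spike-ins (0.30).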

How the data were processed

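Raw read counts per mature miRNA were deposited by the authors for 4 libraries, as whole numbers without a header. RNA was extracted with TRIzol and small RNA gel-purified, per the labels. The sources used here do not state the aligner, annotation release or build. The 2 spike-in rows were kept out of totals and tests.

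Counts were filtered with filterByExpr (minimum count 10, minimum total 15), scaled with TMM and fitted with edgeR 4.0.16 (R 4.3.3), knockdown against control, no block; DESeq2 1.42.0 was an alternative. Ratios used counts without a pseudocount. Intervals are exact 95% Poisson, Clopper-Pearson or conditional odds-ratio intervals (scipy 1.17.1). Hairpins were folded with RNAfold 2.7.2; 2363 of 2366 names matched GENCODE 29 hairpin genes and 2090 matched RefSeq mature names. Plots used matplotlib 3.10.9.

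Same-numbered libraries come from 1 polyclonal line per guide RNA and pair by design, although their deviations correlated at -0.11 across miRNAs. With 1 culture per guide RNA and condition, p-values measure only the spread between these libraries. The test was checked on simulated counts of 464 miRNAs, with as many rises as falls. It recovered 82% of log2 changes of 1 and 56.9% of those of 0.5, and 2.68% of calls were false. The simulation held no general shift like that seen here with library size or spike-ins. The members and lists were chosen with earlier results of these data known. Named miRNAs are the members, the 3 most alike to each, the 3 next largest neighbour pairs, and the most abundant or called list members.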

Additional observations from a re-analysis of the deposited data

How the results depend on the processing

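Both knockdown ratios of miR-132-5p per miR-212-3p lay above both control ratios, so leaving out 1 library or summing counts could not reverse their change. Its direction under those settings is therefore no check. The size of the change stayed within the spread of the guide RNAs under the 7 alternatives that could move it. It ran from 1.45 to 1.71 on the log2 scale when 1 library was left out and was 1.51 with a pseudocount of 2. Leaving out 1 library compares the means of the remaining libraries, so the pairing by guide RNA is lost. It moved the change of miR-132-5p per miR-212-5p between 1.54 and 3.998 and that of miR-212-3p per miR-212-5p between 0.0018 and 2.38. The log2 fold change of miR-132-5p was reversed with library size alone (0.37) and with spike-in scaling (0.58), and ran from -0.43 to 0.19 when 1 library was left out. miR-212-3p ran from -2.14 to -1.26 and miR-212-5p from -3.85 to -1.77 in those fits, negative in each, with calls lost as given above. For each miR-212 arm both knockdown libraries were below both controls, so these fits could hardly turn the sign. A mean of at least 10 CPM removed miR-212-5p from the test, and without control replicate 2 it was filtered out, so neither gave it a value. With guide RNA as a replicate block, miR-132-5p was at -0.10, miR-212-3p at -1.71 and miR-212-5p at -2.37, and no call of these 3 changed. For the ratios, a difference of group means equals the mean of the within-guide changes by construction, so dropping the pairing is no check of them. The number of miRNAs called, 236, was 144 with DESeq2 and 117 to 195 when 1 library was left out (117 without knockdown replicate 1, 140 without control replicate 2). With library size alone 314 miRNAs were called, 273 of them higher, and with spike-in scaling 194, of which 186 were higher. The 1 to 14 reads of miR-212-5p per library leave its arm ratio unresolved.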
